A study of Homo sapiens with 9 samples.

Results

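The epidermal differentiation complex is a cluster of genes on human chromosome 1 whose best known members build the outer layer of the skin. Described here are its genes other than the late cornified envelope groups LCE1 and LCE2. The rule goes by gene symbol and uses no measured values, but it was chosen with earlier results of these data known. It takes LCE3 to LCE6, SPRR, numbered S100A genes, and FLG, FLG2, HRNR, RPTN, TCHH, TCHHL1, CRNN, LORICRIN, IVL, SMCP, LELP1, PGLYRP3 and PGLYRP4. Of 18417 genes measured by probe sets that carry a single symbol, 44 met this rule. They were 15 S100A genes, 6 fused S100 genes, 7 LCE genes, 10 SPRR genes, 2 PGLYRP genes and the 4 genes LORICRIN, IVL, SMCP and LELP1. HRNR, LCE6A and SPRR5 were not analysed here.

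In skin, keratinocytes that leave the basal layer replace their plasma membrane with a cornified envelope, in which involucrin, loricrin, SPRR and LCE proteins are cross-linked by transglutaminases. The fused S100 proteins, such as filaggrin, bind keratin filaments or fill the envelope. Most S100A proteins are small calcium-binding dimers, and several are made by most cell types. Fibroblasts do not cornify, so most of these genes are outside their usual programme, but S100A4, S100A6, S100A10, S100A11, S100A13 and S100A16 are common fibroblast transcripts.

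RNA came from IMR90 ER:RAS cells, a human lung fibroblast line (spelled IRM90 in the labels) that carries oncogenic RAS fused to a part of the oestrogen receptor and enters oncogene-induced senescence (OIS) when 4-hydroxytamoxifen (4OHT) is added. There were 3 groups of 3 arrays, all labelled as 6 days after 4OHT and 7 days of growth: empty vector without 4OHT (vector-4OHT, non-senescent), empty vector with 100 nM 4OHT (vector+4OHT, senescent), and a short hairpin RNA against ARID1B, which encodes a subunit of the SWI/SNF chromatin remodeller, with 100 nM 4OHT (shARID1B+4OHT). Values are log2 expression after robust multi-array averaging (RMA). A gene was called when limma's Benjamini-Hochberg adjusted p over all 18417 genes was under 0.05. All groups carry ER:RAS, so effects of 4OHT itself and of RAS cannot be told apart. The hairpin cells are set against an empty vector and not a control hairpin, the labels do not name the hairpin, and there was no group with shARID1B and without 4OHT. The article calls the replicates of this experiment biological, while the labels do not state whether they were separate cultures, and p-values measure just the spread between these samples.

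The check of the hairpin came first. ARID1B read 8.93, 8.85 and 8.94 on the vector-4OHT arrays, 8.63, 8.96 and 8.77 on the vector+4OHT arrays and 8.07, 7.96 and 8.13 on the shARID1B+4OHT arrays. All 3 hairpin arrays lay below all others, with a change of -0.73 ± 0.081 (SE, adjusted p = 0.000179) against vector+4OHT. The cells carried fibroblast markers: all 10 genes of that list, such as COL1A1 and VIM, stood above 6.75, the median of all probe sets, in every group. So did 1 of 8 keratinocyte, 1 of 9 leukocyte and 2 of 7 endothelial markers, and 5 of 8 epithelial markers in both vector groups and 6 of 8 with the hairpin. That median includes probe sets without a symbol, and 6746 of the 18417 genes had a mean under it. In senescence 8 of the 10 fibroblast markers (80%) fell, beside 17.6% of all genes. The summed linear level of the 10 went from a range of 35720 to 39250 in vector-4OHT to 29330 to 30630 in vector+4OHT and 29850 to 30760 in shARID1B+4OHT. The part of this shift in the results below was not tested. In RNA from whole cultures, fewer cells of a type and less RNA per cell cannot be told apart.

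Most of the 44 genes read low. On all 9 arrays 27 of them lay below 6.75 and 13 above it, with LCE5A, LCE3E, LCE3D and LELP1 on both sides. The genes above were S100A3, S100A4, S100A6, S100A10, S100A11, S100A13, S100A16, LCE3A, LCE3B, SPRR1A, SPRR2F, SPRR2G and SPRR4. Those below included the classical differentiation markers FLG, IVL and LORICRIN and the inflammatory S100A7, S100A8, S100A9 and S100A12. For scale, 6746 of all 18417 genes had a mean over the 9 arrays under 6.75. The brightness of a probe set also depends on its probes, so levels of different genes are not ranked against each other, and a reading below 6.75 is not shown to be above background. TCHHL1, SPRR3 and S100A2 gave the same value on all 3 arrays of a group, and 8 further genes gave the same value on a pair of arrays. Probe sets of the SPRR2, LCE3, S100A7 and PGLYRP genes can share signal with near-identical relatives, and their values are uncertain for that reason.

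**Figure D1:**
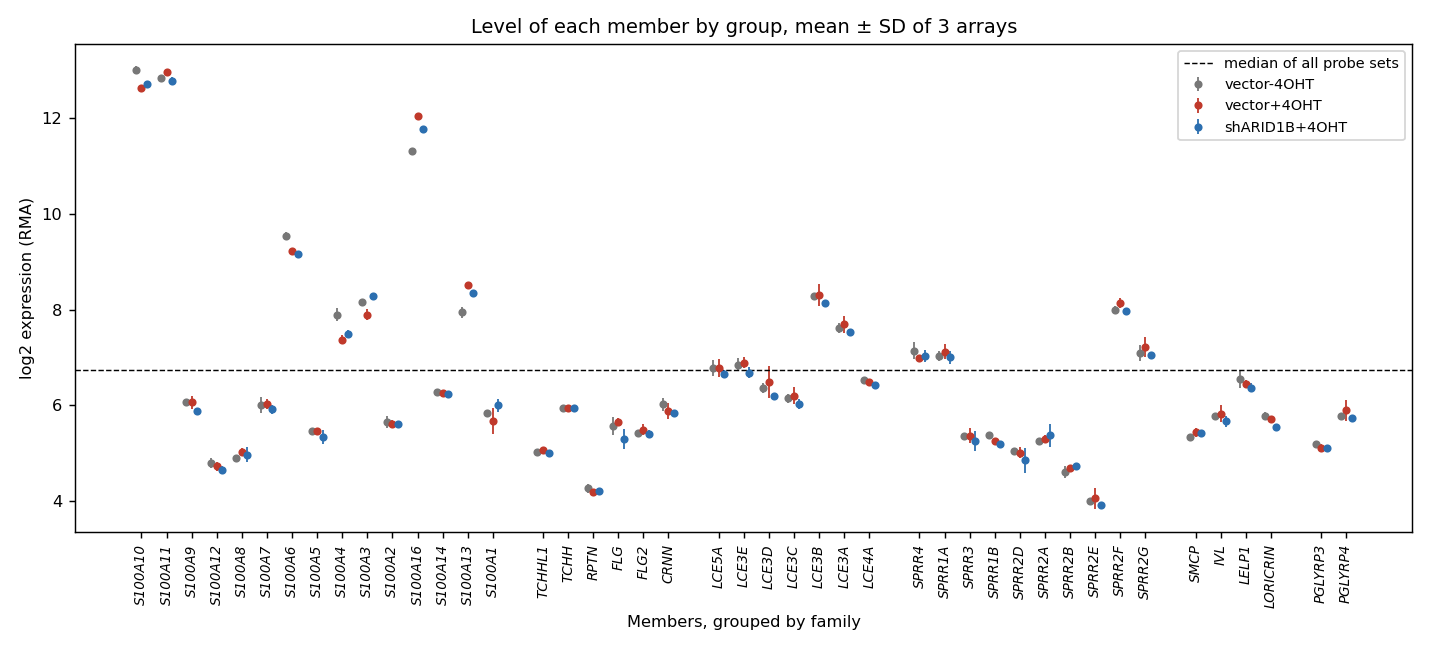
Log2 expression (RMA) of the 44 genes, grouped by family along the horizontal axis, as mean ± SD of 3 arrays in vector-4OHT (grey), vector+4OHT (red) and shARID1B+4OHT (blue); the dashed line is 6.75, the median of all probe sets. Group means differ most in S100A16, S100A13 and S100A4, all above the line. Most SPRR, fused S100 and PGLYRP genes lie below it, where the bars of FLG, SPRR1B and LORICRIN also part between some groups.

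Senescence changed 7 of the 44 genes, 6 of them S100A genes. S100A16 and S100A13 rose, and S100A4, S100A10, S100A6, S100A3 and SPRR1B fell. The 2 higher genes are 4.55% of the 44, where 14.9% of all genes were called higher, and the 5 lower are 11.4%, where 17.6% of all genes were called lower. Of the 15 S100A genes alone, 2 (13.3%) were higher and 4 (26.7%) lower. The median change of the 44 was 0.0166, beside -0.012 over all genes. Without an adjustment, 8 of the 44 (18.2%) had a p under 0.05, beside 39.7% of all genes. Most of the 44 read low, and shares over genes of like brightness were not computed.

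S100A16, a broadly expressed EF-hand protein, had the largest rise among them. It read 11.36, 11.28 and 11.31 on the vector-4OHT arrays, 12.05, 12.09 and 12.03 on the vector+4OHT arrays and 11.79, 11.77 and 11.77 on the shARID1B+4OHT arrays. The 3 groups did not overlap, and the hairpin arrays lay between the others. The senescence rise was 0.74 ± 0.046 (SE), or 1.67-fold (adjusted p = 4.79e-07). S100A13, which takes part in the release of FGF1 and IL1A from cells without a signal peptide, read 7.89, 7.87 and 8.06 in vector-4OHT, 8.47, 8.57 and 8.52 in vector+4OHT and 8.34, 8.37 and 8.34 in shARID1B+4OHT. Again the groups did not overlap and the hairpin arrays were in the middle. S100A13 rose by 0.58 ± 0.059 in senescence, or 1.49-fold (adjusted p = 2.34e-05). S100A14, an S100 gene of epithelia that lies between these in gene order, read 6.27 ± 0.056 (SD, n = 3), 6.25 ± 0.067 and 6.24 ± 0.018 in the same 3 groups. Its senescence change of -0.02 had a 95% interval of -0.14 to 0.09 (adjusted p = 0.801).

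Among the genes that fell, S100A4, a calcium-dependent partner of non-muscle myosin, moved most. Its readings were 8.03, 7.90 and 7.76 in vector-4OHT, 7.47, 7.29 and 7.34 in vector+4OHT and 7.45, 7.58 and 7.46 in shARID1B+4OHT. Every 4OHT array lay below every array without it, and S100A4 fell by 0.53 ± 0.077 in senescence (adjusted p = 0.000291). S100A10, which forms a membrane complex with annexin A2, went from 13.09, 13.01 and 12.92 to 12.65, 12.61 and 12.67. It fell by 0.36 (adjusted p = 0.000299), with no overlap of the groups. S100A6, or calcyclin, went from 9.62, 9.46 and 9.53 to 9.26, 9.21 and 9.24, a fall by 0.30 (adjusted p = 0.000961), and these groups did not overlap either. S100A3, best known from the hair cuticle, read 8.12, 8.22 and 8.12 without 4OHT and 7.80, 7.88 and 8.01 with it. It fell by 0.26 (adjusted p = 0.0077), again without overlap. Under the methods' t-test with Benjamini-Hochberg adjustment, the call of S100A3 was lost (adjusted p = 0.0887).

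SPRR1B, a proline-rich cross-bridging protein of the envelope, was the single called gene outside the S100A family. It read 5.35, 5.42 and 5.39 in vector-4OHT and 5.21, 5.31 and 5.20 in vector+4OHT, all far below 6.75. The groups did not overlap, and the fall was by 0.14 (adjusted p = 0.0465). This call was lost under 12 of the 17 alternatives that kept the gene, with adjusted p from 0.0683 to 0.203. They included leaving out vector-4OHT replicate 2 (0.128) or 3 (0.0989), vector+4OHT replicate 1 (0.0928) or 3 (0.132), or any of the shARID1B+4OHT arrays.

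**Figure D2:**
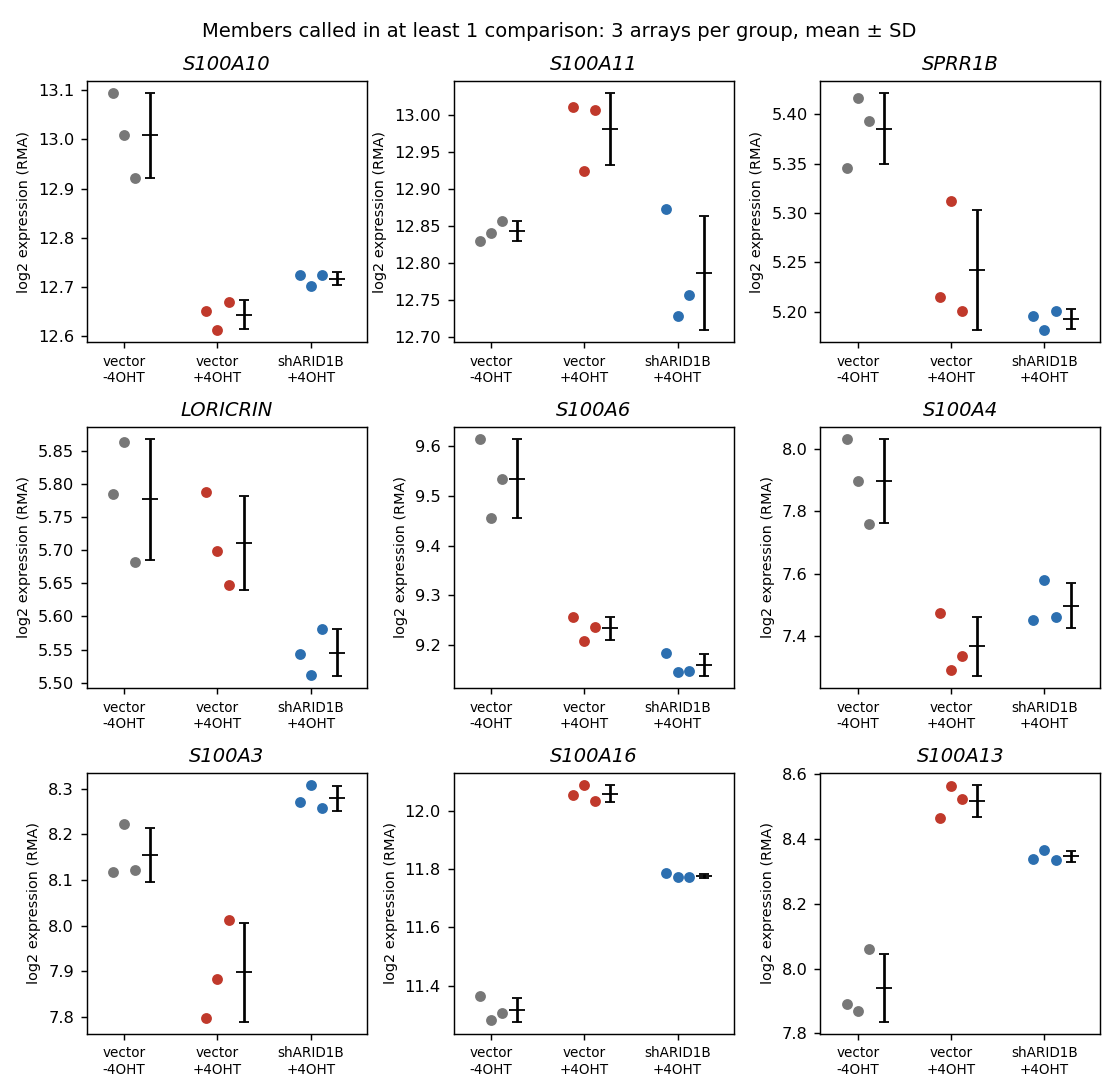
Log2 expression (RMA) of the 9 genes called in at least 1 comparison, array by array (points), beside the mean ± SD of the 3 in a group; each panel has its own axis, which does not start at 0. S100A16 and S100A13 are highest in vector+4OHT with the hairpin arrays in between, S100A4, S100A10 and S100A6 drop in both 4OHT groups, and S100A3 is lowest in vector+4OHT.

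The next comparison set shARID1B+4OHT against vector+4OHT. In the article, cells received the hairpin and then 4OHT. It reports blunted OIS after ARID1B depletion, with more proliferation and fewer cells positive for senescence-associated β-galactosidase. Cells with blunted senescence are thus set beside senescent ones. The comparison uses the same vector+4OHT arrays as the senescence comparison, so a high or low reading there moves both in opposite directions. With the hairpin S100A3 rose and S100A16 and S100A11 fell, and the other 41 genes were not called. The 1 higher gene is 2.27% of the 44, beside 9.63% of all genes, and the 2 lower genes are 4.55%, beside 6.09% of all genes. Of the 15 S100A genes alone, 1 (6.67%) was higher and 2 (13.3%) lower. Without an adjustment, 10 of the 44 (22.7%) had a p under 0.05, beside 27.9% of all genes. The median change of the 44 was -0.0987, beside -0.0169 over all genes.

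S100A3 read 8.27, 8.31 and 8.26 on the shARID1B+4OHT arrays, above all 6 arrays of the other groups. It rose by 0.38 ± 0.062 with the hairpin, or 1.30-fold (adjusted p = 0.00205), after the fall in senescence. Under the methods' t-test with Benjamini-Hochberg adjustment this call was lost too (adjusted p = 0.0511). S100A16 fell by 0.28 ± 0.046, to 0.822 of its vector+4OHT level (adjusted p = 0.0021), and stayed 0.46 above vector-4OHT (adjusted p = 1.85e-05). S100A13 missed the threshold, with a change of -0.17 and a 95% interval of -0.30 to -0.04 (adjusted p = 0.0807). It was called lower without vector-4OHT replicate 3 (adjusted p = 0.0376) and in the fit of the 6 arrays compared (adjusted p = 0.0475).

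S100A11, an annexin A1 partner that is also built into the cornified envelope, read 12.83, 12.84 and 12.86 in vector-4OHT, 13.01, 12.92 and 13.01 in vector+4OHT and 12.87, 12.73 and 12.76 in shARID1B+4OHT. The vector+4OHT arrays were the highest of the 9. S100A11 fell by 0.19 with the hairpin (adjusted p = 0.0316), after a senescence change of 0.14 that was not called (adjusted p = 0.0733). The knockdown call was lost under 8 of 18 alternatives, with adjusted p up to 0.131. Among these were leaving out vector+4OHT replicate 1 (0.0762) or 3 (0.0762) and shARID1B+4OHT replicate 2 (0.131) or 3 (0.115). The senescence change passed in 5 alternatives, with p from 0.00916 (unadjusted, by the methods' t-test) to 0.0478.

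The 3 genes that fell most in senescence had small differences with the hairpin. S100A4 differed by 0.13 (95% interval -0.04 to 0.30, adjusted p = 0.304), S100A10 by 0.07 (-0.04 to 0.19, adjusted p = 0.41) and S100A6 by -0.07 (-0.19 to 0.04, adjusted p = 0.392). Against vector-4OHT, the shARID1B+4OHT level of S100A4 was lower by 0.40 (adjusted p = 0.00216), that of S100A10 by 0.29 (adjusted p = 0.00151) and that of S100A6 by 0.38 (adjusted p = 0.000222), each below all 3 vector-4OHT arrays.

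A last comparison, of shARID1B+4OHT with vector-4OHT, called 7 of the 44 genes. S100A16 and S100A13 were higher, the latter by 0.41 (adjusted p = 0.000336), and S100A4, S100A6, S100A10, SPRR1B and LORICRIN were lower. The backgrounds were 15.6% of all genes higher and 15.9% lower, and the shares among the 44 were 4.55% and 11.4%. SPRR1B read 5.20, 5.18 and 5.20 with the hairpin and was lower by 0.19 (adjusted p = 0.0115), a call lost when array medians were subtracted (adjusted p = 0.116). LORICRIN, a glycine-rich protein that makes up most of the cornified envelope, read 5.78, 5.86 and 5.68 in vector-4OHT, 5.79, 5.70 and 5.65 in vector+4OHT and 5.54, 5.51 and 5.58 with the hairpin. The hairpin arrays were the 3 lowest, all under 6.75. LORICRIN was lower by 0.23 (adjusted p = 0.0129), and the call was lost without vector-4OHT replicate 2 (0.0525) or shARID1B+4OHT replicate 2 (0.0532), and under the methods' t-test with Benjamini-Hochberg adjustment (0.0579).

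Promoters are shown for S100A16 and S100A13, which rose, for the uncalled S100A14 between them, for S100A3, which moved both ways, and for SPRR1B, with IVL as an uncalled envelope gene. SPRR1B was taken by a rule set beforehand that goes by the calls: the largest called change of a family whose called genes move the same way. The others were picked after their values were seen. Each is the stretch from 250 bases before to 50 after the RefSeq transcript start on GRCh38.p14, 5′ to 3′ on the strand of the gene, and capitals mark any match to the AP-1 motif TGANTCA, the TATA box TATAAA or the kappaB motif on either strand. The positions are chr1:153613088-153613387, minus strand, for S100A16, chr1:153616276-153616575, minus strand, for S100A14, and chr1:153634312-153634611, minus strand, for S100A13. S100A3 is at chr1:153549209-153549508, minus strand, SPRR1B at chr1:153030953-153031252, plus strand, and IVL at chr1:152908296-152908595, plus strand.
S100A16: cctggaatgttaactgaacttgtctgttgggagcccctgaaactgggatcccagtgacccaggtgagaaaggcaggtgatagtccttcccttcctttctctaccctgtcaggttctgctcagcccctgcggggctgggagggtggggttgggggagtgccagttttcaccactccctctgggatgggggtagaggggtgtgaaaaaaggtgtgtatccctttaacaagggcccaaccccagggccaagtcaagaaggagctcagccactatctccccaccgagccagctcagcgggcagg
S100A14: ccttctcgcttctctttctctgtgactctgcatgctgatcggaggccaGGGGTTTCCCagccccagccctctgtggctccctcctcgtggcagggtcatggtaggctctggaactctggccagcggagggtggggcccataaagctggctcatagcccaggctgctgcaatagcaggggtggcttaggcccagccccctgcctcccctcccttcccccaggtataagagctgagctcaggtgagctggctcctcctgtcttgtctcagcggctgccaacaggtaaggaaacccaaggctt
S100A13: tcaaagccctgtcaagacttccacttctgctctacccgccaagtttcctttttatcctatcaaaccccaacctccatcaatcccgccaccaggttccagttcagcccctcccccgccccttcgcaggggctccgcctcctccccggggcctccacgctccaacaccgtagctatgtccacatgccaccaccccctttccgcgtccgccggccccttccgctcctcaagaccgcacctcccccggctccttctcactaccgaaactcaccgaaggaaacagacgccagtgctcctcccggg
S100A3: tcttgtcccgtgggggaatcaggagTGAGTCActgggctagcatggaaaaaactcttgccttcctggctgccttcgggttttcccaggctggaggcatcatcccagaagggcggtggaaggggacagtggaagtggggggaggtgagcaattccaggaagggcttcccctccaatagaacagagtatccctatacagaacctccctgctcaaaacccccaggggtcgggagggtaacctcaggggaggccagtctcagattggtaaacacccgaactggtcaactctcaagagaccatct
SPRR1B: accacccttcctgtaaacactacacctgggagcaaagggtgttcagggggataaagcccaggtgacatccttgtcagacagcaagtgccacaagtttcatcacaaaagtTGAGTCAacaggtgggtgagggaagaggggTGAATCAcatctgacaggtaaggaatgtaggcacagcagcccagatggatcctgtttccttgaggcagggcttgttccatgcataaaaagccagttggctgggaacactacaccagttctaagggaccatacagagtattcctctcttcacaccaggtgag
IVL: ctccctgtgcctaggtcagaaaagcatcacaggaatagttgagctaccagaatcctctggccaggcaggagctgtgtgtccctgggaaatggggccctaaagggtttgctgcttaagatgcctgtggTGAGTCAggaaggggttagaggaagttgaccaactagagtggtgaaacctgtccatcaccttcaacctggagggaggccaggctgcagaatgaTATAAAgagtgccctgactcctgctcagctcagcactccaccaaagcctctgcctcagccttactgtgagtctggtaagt

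Neither the S100A16 nor the S100A13 window held any of these letters, S100A14 had a kappaB match, S100A3 had an AP-1 match, SPRR1B had 2 AP-1 matches, and IVL had an AP-1 match and a TATA box. Of the 44 genes 42 had a promoter in the RefSeq set, all but SPRR2D and SPRR2E. AP-1 letters stood in 18 of the 42 (42.9%), beside 7.76% of 27305 promoters of the same length, and TATAAA in 17 (40.5%), beside 12% of all. The kappaB motif stood in 4 (9.52%), beside 10.8%. By family, AP-1 letters were in 6 of 6 fused S100 genes, 6 of 8 SPRR genes, 3 of 15 S100A genes and 0 of 7 LCE genes. Among genes called in at least 1 comparison they were in 3 of 9 (S100A3, SPRR1B and LORICRIN), and among those never called in 15 of 33. A match describes letters in a window and not a bound site.

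The remaining 35 genes were called in none of the comparisons. In senescence the 37 uncalled genes had changes from -0.18 (S100A1) to 0.14 (S100A11), and all 37 of their 95% intervals lay within 0.5 of zero, from -0.44 for S100A1 to 0.44 for LCE3D. With the hairpin the 41 uncalled changes ran from -0.35 (FLG) to 0.33 (S100A1), and 38 of the intervals lay within 0.5. The exceptions were FLG, LCE3D and S100A1, with outer bounds of -0.60, -0.60 and 0.59.

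Among the inflammatory S100A genes, S100A8 and S100A9, whose products pair as calprotectin, differed in senescence by 0.13 (95% interval -0.04 to 0.31) and 0.00 (-0.15 to 0.15). S100A8 read 4.81, 4.92 and 4.93 in vector-4OHT, 5.07, 5.06 and 4.93 in vector+4OHT and 5.12, 4.80 and 4.97 with the hairpin. S100A9 read 5.98, 6.11 and 6.08, then 6.22, 5.98 and 5.98, then 5.84, 5.92 and 5.88. The vector groups overlapped for both, and the hairpin arrays of S100A9 were the lowest of the 9, by -0.18 against vector+4OHT (adjusted p = 0.112). S100A12, a further calgranulin, and S100A7, or psoriasin, had senescence changes of -0.07 and 0.03 and knockdown changes of -0.07 and -0.12. S100A2 and S100A5 changed by -0.04 and -0.01 in senescence and by 0.01 and -0.12 with the hairpin. S100A1, a calcium sensor of muscle, read 5.82, 5.86 and 5.85, then 5.94, 5.68 and 5.39, then 6.13, 5.86 and 6.01. Its vector+4OHT arrays spread widely, and without replicate 1 of that group it was called lower in senescence and higher with the hairpin.

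Of the 6 fused S100 genes none was called. FLG, the profilaggrin gene, read 5.35, 5.69 and 5.66 in vector-4OHT, 5.74, 5.62 and 5.58 in vector+4OHT and 5.52, 5.11 and 5.26 with the hairpin. The hairpin arrays lay below the vector+4OHT arrays, by -0.35 ± 0.11 (SE, adjusted p = 0.0581), and overlapped the vector-4OHT arrays. FLG passed with the hairpin without vector-4OHT replicate 1, without shARID1B+4OHT replicate 1 and with an intensity trend in the prior. TCHHL1, TCHH, RPTN, FLG2 and CRNN, proteins of hair sheath, tongue and stratified epithelia, had senescence changes of 0.04, 0.01, -0.07, 0.06 and -0.13. With the hairpin they differed by -0.06, 0.01, 0.01, -0.09 and -0.05. A probe set that RPTN shares with HRNR was not called in any comparison.

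The 7 LCE genes outside LCE1 and LCE2 were not called in any comparison. LCE3A to LCE3E, the group linked to wound repair and psoriasis, had senescence changes of 0.02 (LCE3B) to 0.13 (LCE3D), and with the hairpin all 5 were lower on average, by -0.16 (LCE3A) to -0.30 (LCE3D). LCE3D read 6.29, 6.48 and 6.29, then 6.88, 6.29 and 6.29, then 6.23, 6.11 and 6.22. A single vector+4OHT array stood apart there, and the other readings of that group were the same to the second decimal as the lower ones of vector-4OHT. LCE4A and LCE5A changed by -0.05 and 0.01 in senescence and by -0.05 and -0.13 with the hairpin. Of the 10 SPRR genes, SPRR1B apart, the 9 others had senescence changes from -0.16 (SPRR4) to 0.13 (SPRR2F) and knockdown changes from -0.18 (SPRR2G) to 0.07 (SPRR2A).

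Involucrin (IVL), an early scaffold of the envelope, read 5.81, 5.77 and 5.76 in vector-4OHT, 6.03, 5.71 and 5.73 in vector+4OHT and 5.79, 5.66 and 5.56 with the hairpin. The groups overlapped, and the changes were 0.04 in senescence (95% interval -0.15 to 0.24) and -0.15 with the hairpin (-0.35 to 0.04). SMCP, a sperm mitochondrial protein, and LELP1, a small proline-rich protein, changed by 0.11 and -0.11 in senescence. PGLYRP3 and PGLYRP4, which bind bacterial peptidoglycan, changed by -0.07 and 0.13 in senescence and by 0.01 and -0.15 with the hairpin. Over the 29 genes outside the S100A family, 0 were higher and 1 lower in senescence and 0 were called with the hairpin, where 4 (13.8%) had an unadjusted p under 0.05. Over all genes 14.9% were higher and 17.6% lower in senescence, and 9.63% and 6.09% with the hairpin, where 27.9% had an unadjusted p under 0.05. The 29 genes' median changes were 0.04 and -0.12. Shares over genes of like brightness were not computed here either.

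**Figure D3:**
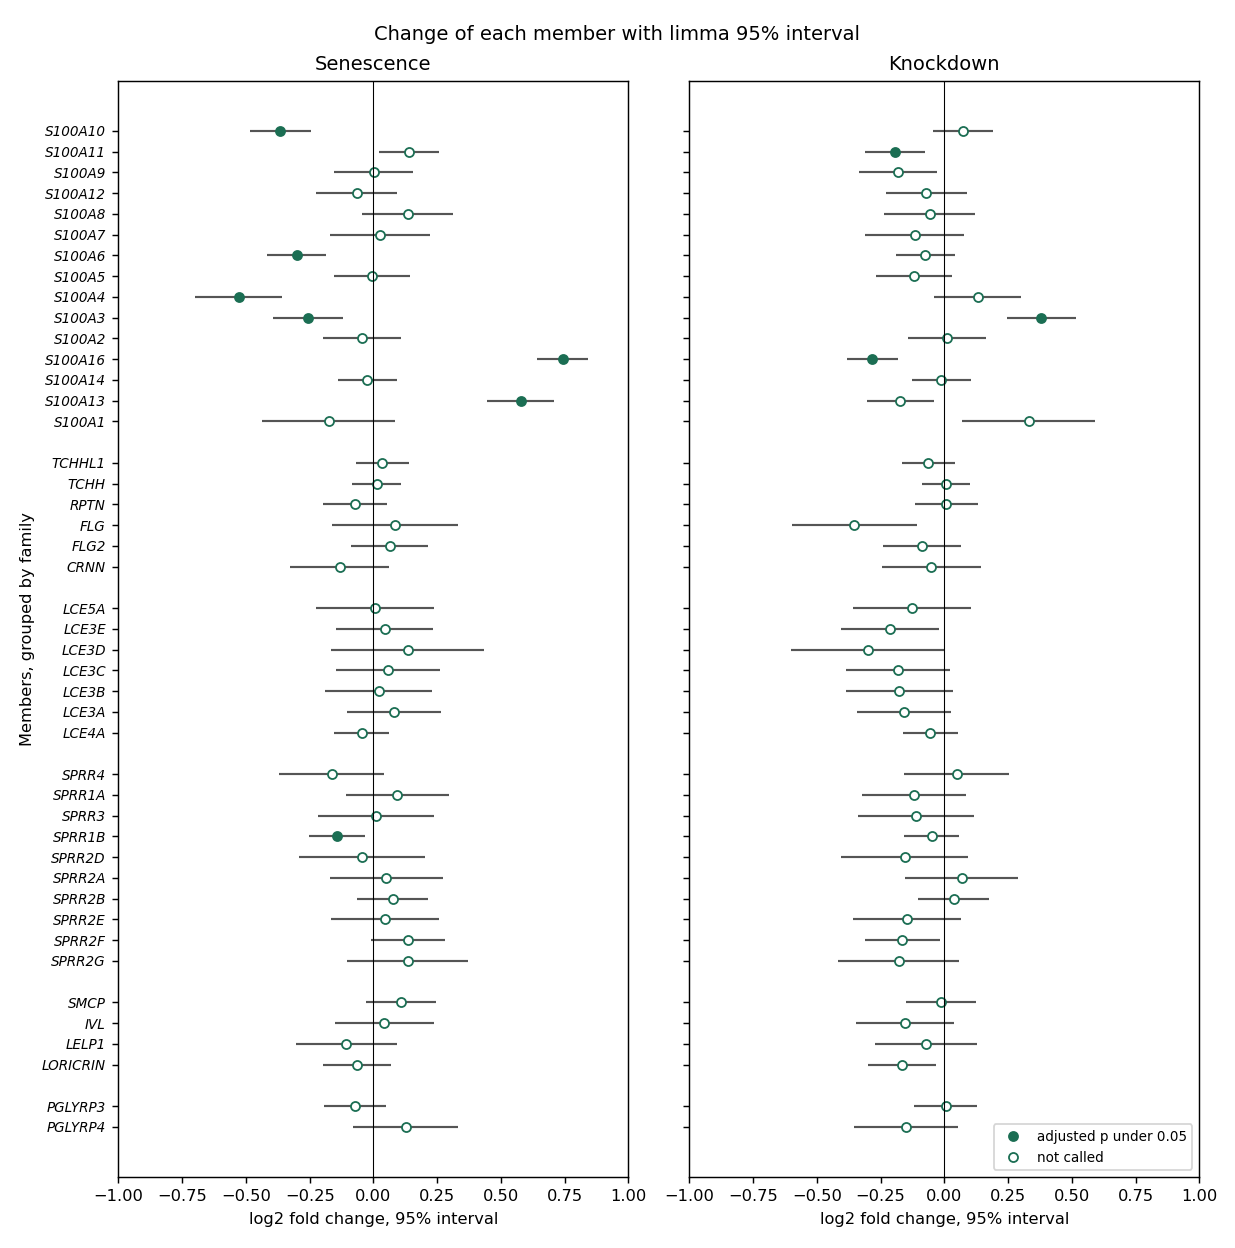
Change of each of the 44 genes on the log2 scale, with limma's 95% interval, in senescence (vector+4OHT minus vector-4OHT, left) and knockdown (shARID1B+4OHT minus vector+4OHT, right); filled points had an adjusted p under 0.05. Filled points lie in the S100A block except for SPRR1B, and most open points sit slightly left of 0 in the right panel.

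One array moved with these small shifts. Replicate 1 of vector+4OHT was the highest of its group in 29 of the 35 genes never called (82.9%), beside 35.6% of all genes and 54.2% of genes with a mean under 6.75. It lay above its group mean by a median of 0.0972 in those 35. Without it, the median change of the 44 genes went from 0.0166 to -0.061 in senescence and from -0.0987 to -0.0375 with the hairpin. Over all genes the median change went from -0.012 to -0.033 in senescence and from -0.0169 to -0.00398 with the hairpin. The knockdown counts among the 44 then were 2 higher and 1 lower. The calls of S100A16, S100A13, S100A4, S100A10, S100A6 and S100A3 in senescence and of S100A3 and S100A16 with the hairpin held without it. Replicate 2 of vector-4OHT was the highest of its group in 19 of the 35 (54.3%). The shares were 33.7% of all genes and 41.6% of genes with a mean under 6.75.

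Along the chromosome the called S100A genes lay toward the ends of the complex, and SPRR1B and LORICRIN in its middle. S100A10 and S100A11 begin it, and S100A6, S100A4, S100A3, S100A16 and S100A13 are near its other end, with the uncalled S100A5, S100A2 and S100A14 among them. The middle holds LCE3, LCE4A, SPRR, IVL and LORICRIN, interleaved with 10 LCE1 and LCE2 genes. Of these 10 genes, 5 (50%) were higher in senescence and 6 (60%) lower with the hairpin. LCE4A, the neighbour of LCE2A, changed by -0.05 (95% interval -0.15 to 0.06) where LCE2A rose by 3.53 (adjusted p = 1.7e-10). LCE3A, the neighbour of LCE2D, changed by 0.08 (-0.10 to 0.27) where LCE2D rose by 0.99 (adjusted p = 0.000938). The 4 other genes within the complex, CRCT1, KPLCE, KPRP and S100A7A, were not called. Of 20 genes flanking it, 0 were higher and 5 (25%) lower in senescence, led by TUFT1 with a fall by 1.13 (adjusted p = 4.45e-07). With the hairpin 1 (5%) was higher and 1 (5%) lower. Over all genes 14.9% were higher and 17.6% lower in senescence, and 9.63% and 6.09% with the hairpin.

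**Figure D4:**
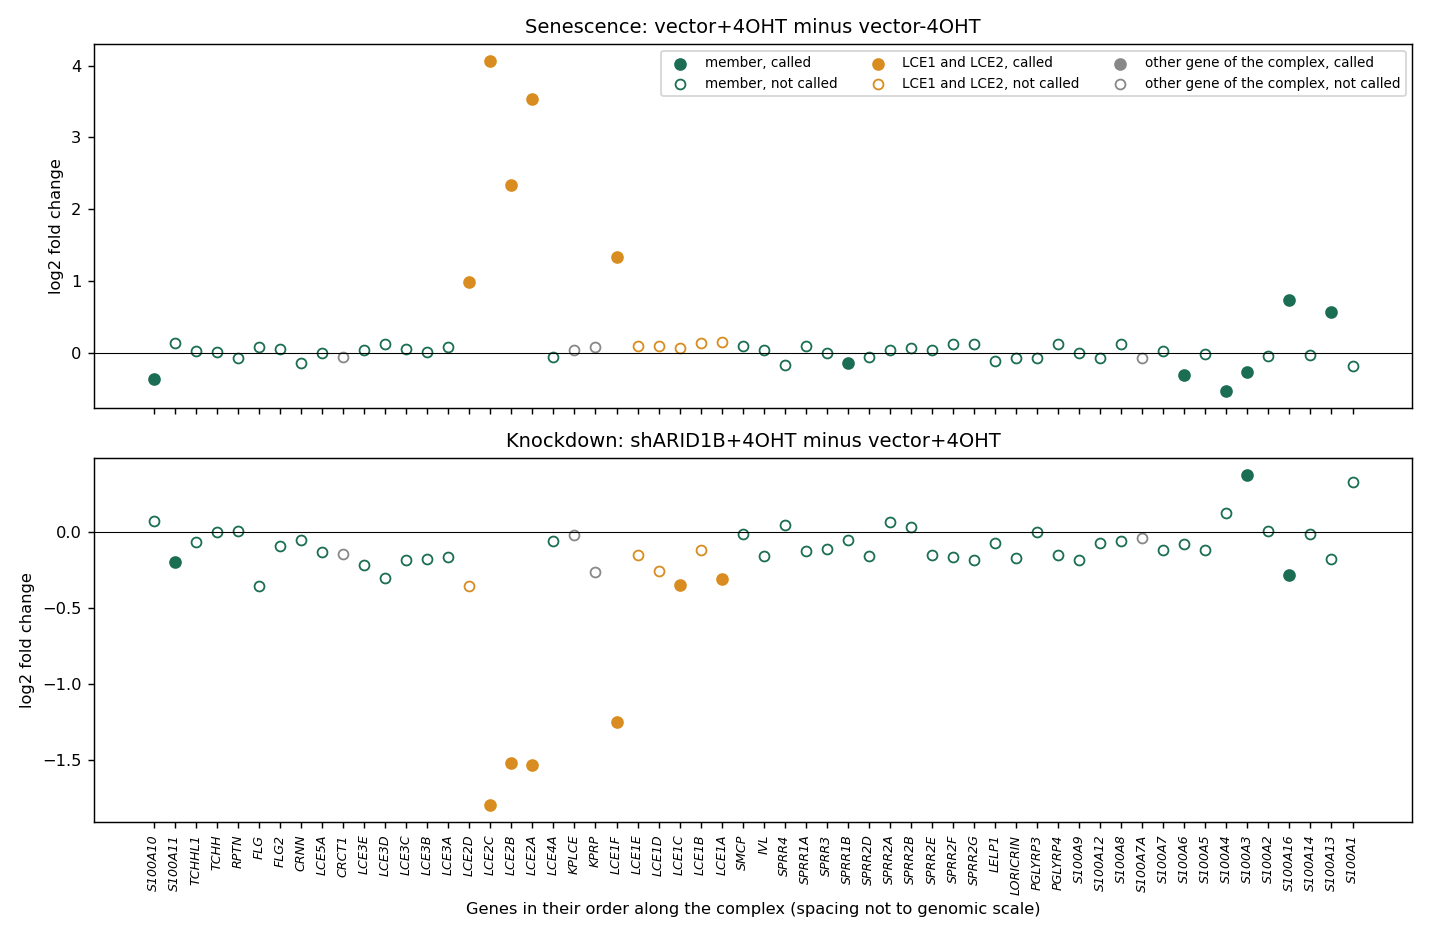
Log2 fold change of 58 genes of the complex in chromosome order (spacing not to scale) in senescence (top) and with the ARID1B hairpin (bottom), for the 44 genes described (green), LCE1 and LCE2 (orange) and other genes (grey); filled points were called. Each panel has its own vertical axis. The orange peak reaches 4.07 at LCE2C, while the green neighbours LCE3A and LCE4A sit at 0.08 and -0.05.

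Genes elsewhere in the genome that build or regulate the skin barrier were read on the same arrays. Of 40 measured genes of the cornified envelope and barrier outside the complex, 5 (12.5%) rose and 2 (5%) fell in senescence. Over all genes 14.9% were higher and 17.6% lower. TGM2, the tissue transglutaminase, rose by 1.19 (adjusted p = 3.7e-08) and the tight junction gene CLDN1 by 0.97 (adjusted p = 4.04e-07), while the desmosomal cadherin DSC3 fell by 0.52 and the envelope plakin PPL by 0.57. With the hairpin, desmoplakin (DSP) fell by 0.55 (adjusted p = 0.0011) and CLDN4 rose by 0.38 (adjusted p = 0.00128), and the other 38 were not called. Each is 2.5% of the 40, beside 6.09% of all genes lower and 9.63% higher. Of 25 regulators of epidermal differentiation, 8 (32%) rose and 4 (16%) fell in senescence, and 3 (12%) rose with the hairpin. In senescence the epithelial ETS factor EHF rose by 4.49 (adjusted p = 2.89e-11), the repressor PRDM1 by 3.02 (adjusted p = 8.62e-11), the AP-1 subunit JUNB by 1.05 and CEBPB by 0.81. The means of EHF in vector-4OHT and of DSC3 in both groups were under 6.75. KLF4, a barrier regulator, fell by 0.49 in senescence (adjusted p = 0.000135) and rose by 0.66 with the hairpin (adjusted p = 8.57e-05). NFE2L2 and FOS were the other regulators called with the hairpin, both higher.

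Of 16 receptors and partners of S100 proteins, 2 (12.5%) rose and 5 (31.2%) fell in senescence, and 3 (18.8%) fell with the hairpin. Over all genes 14.9% were higher and 17.6% lower in senescence, and 6.09% lower with the hairpin. MYH9, the myosin that S100A4 binds, fell by 0.38 in senescence (adjusted p = 0.000522) and by 0.31 with the hairpin (adjusted p = 0.00518). ALCAM, a cell adhesion receptor, fell by 0.69 and then by 0.34, and the scavenger receptor CD36 rose by 0.73 (adjusted p = 6.23e-05) and with the hairpin fell by 0.45 (adjusted p = 0.00525). Of the 4 S100 genes outside the complex, S100B alone was called in senescence, lower by 0.28 (adjusted p = 0.0436) with both means under 6.75, and none with the hairpin. PGLYRP1 and PGLYRP2, the 2 relatives elsewhere in the genome, were not called in any comparison. Of 8 keratinocyte markers, LAMB3 alone was called in senescence, higher by 0.31 (adjusted p = 0.00126), and the summed linear level of the list was 544.1 to 577.7 in vector-4OHT, 543.5 to 606.5 in vector+4OHT and 542.4 to 590.5 with the hairpin. Of 9 leukocyte markers, CD68 alone was called, higher by 0.29 in senescence and by 0.34 with the hairpin. The summed linear level of that list was 2225 to 2416 in vector-4OHT, 2596 to 2757 in vector+4OHT and 3142 to 3543 with the hairpin, with no overlap of the groups. Such a sum is weighted to the brightest gene, and 1 of the 9 stood above 6.75. The median change of the list was -0.036 in senescence and -0.021 with the hairpin. Of 8 epithelial markers, KRT19 fell by 1.10, MUC1 by 0.62 and KRT8 by 0.25 in senescence, and KRT19 rose by 0.86 and CLDN7 by 0.39 with the hairpin. The sums of the epithelial list were 1961 to 2077, 1649 to 1870 and 1719 to 1855 in the same order. Of 7 endothelial markers, PECAM1 rose by 0.58 and TEK fell by 0.30 in senescence, and both moved the opposite way with the hairpin, PECAM1 by -0.28 (adjusted p = 0.0468) and TEK by 0.45 (adjusted p = 0.000526). The sums of that list were 604.4 to 630.9, 557.8 to 607.8 and 634.8 to 643.1. The part of these marker changes in the results above was not tested.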

How the data were processed

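Total RNA of 9 samples was labelled for Affymetrix whole-transcript arrays, although the extraction text of the labels names an Illumina mRNA kit. The values deposited by the authors are log2 expression per probe set. The submitters' processing notes name oligo, limma and RMA (background correction, quantile normalisation and probe summary); versions and genome build are not given in the sources used here. The table held 33297 probe sets, of which 19460 carried 1 gene symbol, 1754 several and 12083 none; the brightest probe set per symbol was kept, which left 18417 genes. Symbols were updated through RefSeq (GRCh38.p14), where all 44 genes matched. All 9 arrays were fitted by group with limma 3.58.1 (R 4.3.3), and p-values were adjusted by Benjamini-Hochberg over all genes within each comparison. With 3 arrays in each group, no exact permutation p can be under 0.1. The fit was tested on simulated data. Precision is limited by the number of arrays. The genes and lists described were chosen with earlier results of these data known. Array readings are printed for genes called with a log2 change of 0.5 or more and, chosen after the values were seen, for the other called genes and 6 uncalled ones. Of each list, up to 4 called genes with the smallest p in each comparison were eligible to be named. A gene named for 1 comparison could also be given in another. Alternatives were a replicate block, only the 6 arrays compared, a filter on dim genes, all probe sets or their mean, subtracted array medians, an intensity trend, the methods' t-test, and leaving out each array.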

Additional observations from a re-analysis of the deposited data

How the results depend on the processing

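Each result was recomputed under 18 alternatives, and none of the called changes reversed its sign. S100A11 made the count higher in senescence 3 in place of 2 under 5 alternatives: dim genes left out, array medians subtracted, an intensity trend and both forms of the methods' t-test. The count higher in shARID1B+4OHT against vector-4OHT was 2 under all but the unadjusted methods' t-test, which gave 3. The methods' t-test with Benjamini-Hochberg adjustment left 3 lower in senescence, 0 higher and 1 lower with the hairpin. Unadjusted, it gave 2 higher and 5 lower with the hairpin and 8 lower in the comparison of shARID1B+4OHT with vector-4OHT. Subtracting array medians gave 2 higher and 1 lower with the hairpin, and all genes split into 3026 higher and 2658 lower in senescence in place of 2747 and 3249. Leaving out dim genes left 3 lower against vector-4OHT, since SPRR1B and LORICRIN were not tested. Leaving out 1 array in turn gave 1 to 2 higher and 1 to 3 lower with the hairpin. The lower count was 1 without replicate 2 or 3 of shARID1B+4OHT or replicate 1 of vector+4OHT. Across all groups, r was -0.264 to 0.322 for same-numbered arrays and -0.331 to 0.337 for others, so the numbers were not taken as pairs. Between vector+4OHT and shARID1B+4OHT alone, same-numbered arrays had r of 0.322, 0.0787 and 0.0711, and others -0.321 to 0.267. With the replicate number as a block, 1 gene was lower with the hairpin. ARID1B kept its fall under all, at -0.65 to -0.81. Of the 35 genes never called, 7 were called under at least 1 alternative: FLG and SPRR4 without vector-4OHT replicate 1, S100A1, S100A9 and LCE3B without vector+4OHT replicate 1, SPRR2G without vector+4OHT replicate 3, FLG also without shARID1B+4OHT replicate 1, and LCE4A under the methods' t-test, unadjusted, alone. Readings under 6.75 limit most SPRR, fused S100 and PGLYRP genes.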
